A study of Mus musculus with 6 samples.

Results

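AP-1 is the transcription factor formed by dimers of FOS and JUN proteins, and its genes are among the first to be transcribed when a cell receives a signal. The RNA of 10 such genes was followed in mouse submandibular salivary gland organoids (mSGOs): 4 genes of the Fos family (*Fos*, *Fosb*, *Fosl1*, *Fosl2*), 3 of the Jun family (*Jun*, *Junb*, *Jund*) and the immediate early genes *Egr1*, *Ier2* and *Ier3*. The genes were chosen by name, as members of these families, but with earlier results of these data known. All 10 were among the 15792 genes tested, out of 18687 genes with any count and 47643 gene identifiers counted. The organoids were grown from submandibular gland cells of female C57BL/6 mice of 8 to 12 weeks and were neither irradiated nor otherwise treated. By the mouse numbers in the labels, organoids of the same 3 mice were taken at day 5 and at day 7. This gave 6 libraries of 3′-end RNA-seq, 3 per day.

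Both days shared the culture conditions, which bear on genes that answer to growth factors and hormones. The organoids stood in Matrigel, a basement membrane extract, in a medium named WRY with EGF and FGF2 at 20 ng/mL each, insulin at 10 µg/mL and N2 supplement. The same medium held dexamethasone, a synthetic glucocorticoid, at 1 µM, the ROCK inhibitor Y27632 at 10 µM, and the Wnt pathway was stimulated by medium conditioned with Wnt3a (50%) and with R-spondin1 (10%). Since the organoids are a mixture of epithelial cells measured in bulk, fewer cells that express a gene and less RNA per cell cannot be told apart.

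FOS and JUN proteins carry a basic region that binds DNA and a leucine zipper through which they pair. JUN proteins can pair with each other or with a FOS protein, whereas FOS proteins need a JUN partner. The dimers bind the TRE, a short palindrome named after phorbol esters, and the related cyclic AMP response element (CRE). Immediate early genes are transcribed within minutes of a stimulus without new protein synthesis, largely through serum response factor at CArG boxes and CREB or ATF proteins at CRE-like sites. Their transcripts are short-lived, and *Fos* and *Jun* are also known to rise when tissue is dissociated or handled.

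The 500 bases before the transcription start of each gene were searched on both strands for such sites in the genome GRCm39, with the starts of the canonical GENCODE vM39 transcripts. A CArG box was found before *Fos* and *Fosb* and before 2.76% of 21770 protein-coding genes. The full CRE, TGACGTCA, was found before *Jund* and *Ier2* and before 1.96% of all. A variant with 1 changed base, TGACATCA, was found before *Jun* and before 3.72% of all. These 5 genes are shown in windows of 80 bases. Of the 10, only they had an exact match to a CArG box, a full CRE or that variant in the 500 bases searched. Sites with other letters or farther away were not searched. *Fosl1*, *Fosl2*, *Junb*, *Egr1* and *Ier3* had no such match, and the part of these sites in the levels was not tested. Capitals mark the matched site, and each window is written 5′ to 3′ on the strand of its gene.
*Fos*, CArG box, chr12:85520320-85520399, plus strand: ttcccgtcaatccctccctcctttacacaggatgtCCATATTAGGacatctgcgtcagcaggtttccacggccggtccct
*Fosb*, CArG box, chr7:19044198-19044277, minus strand: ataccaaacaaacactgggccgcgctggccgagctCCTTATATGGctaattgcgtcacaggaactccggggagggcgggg
*Jun*, CRE variant, chr4:94940461-94940540, minus strand: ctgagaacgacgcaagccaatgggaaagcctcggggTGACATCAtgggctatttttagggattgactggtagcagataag
*Jund*, CRE, chr8:71151349-71151428, plus strand: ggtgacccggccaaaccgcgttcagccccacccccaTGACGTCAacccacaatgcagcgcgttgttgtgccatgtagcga
*Ier2*, CRE, chr8:85389484-85389563, minus strand: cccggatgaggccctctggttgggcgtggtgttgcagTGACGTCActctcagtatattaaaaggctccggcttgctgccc

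The CArG boxes lay 303 to 294 bases before the start of *Fos* and 266 to 257 bases before that of *Fosb*. The *Jun* site lay 45 to 38 bases, the *Jund* site 214 to 207 bases and the *Ier2* site 43 to 36 bases before the start. The shorter motif TGACG, which is part of the full CRE, stood before 8 of the 10 genes (all but *Fosl2* and *Ier3*) and before 25.8% of all. The TRE itself, TGAGTCA, was found before none of the 10 and before 7.57% of all, and TATAAA before *Fos*, *Fosl1*, *Junb* and 24.3% of all. These are matches of letters in a fixed window, and no binding was measured.

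All 10 genes were expressed on both days. CPM, the counts in a library divided by its TMM-scaled total and multiplied by 1000000, is the level used throughout. The method reads the 3′ end of a transcript, so CPM counts transcript ends and is not divided by gene length. A change counted as past the threshold when the two-sided quasi-likelihood test of edgeR gave an adjusted p below 0.05 over all genes tested and the log2 fold change exceeded 0.6 in size. By this test 7 of the 10 genes changed between the days, against a background of 12% of all genes tested. Of these, 6 were higher at day 7 (background 7.22%): *Jun*, *Fosl2*, *Jund*, *Junb*, *Ier3* and *Ier2*. Only *Fosl1* was lower (background 4.82%), and *Fos*, *Fosb* and *Egr1* did not pass. With filterByExpr, a filter that drops genes with few reads, 6 of the 10 genes passed, beside 1643 of 10090 genes tested. The libraries of the days did not overlap for 6 of the 10 genes, where 30.9% of all genes tested showed no overlap. The median log2 fold change was 0.90 for the 10 genes and -0.01 for all genes tested.

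**Figure D1:**
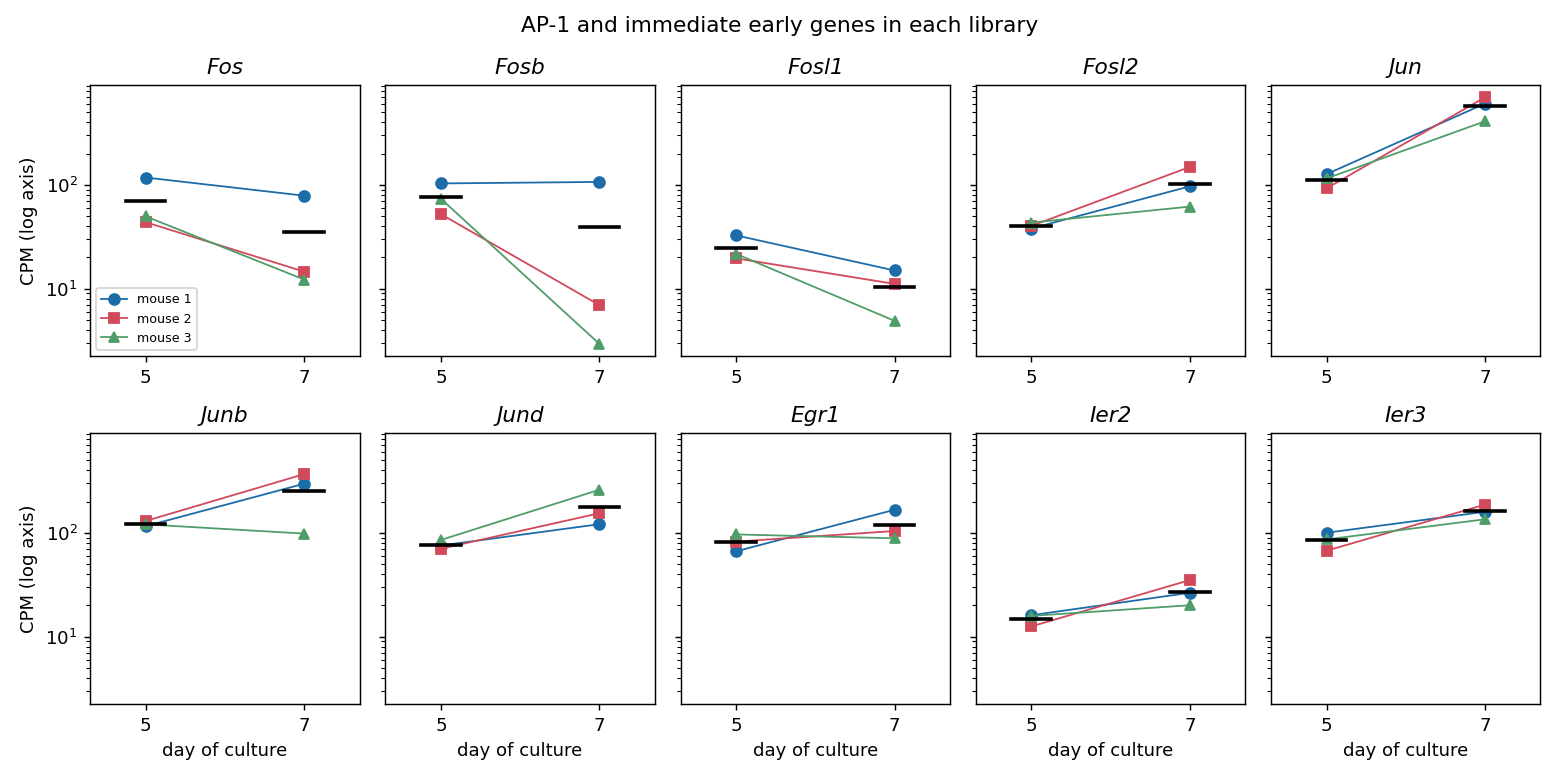
CPM of the 10 genes (log axis) on day 5 and day 7, with a point for each library, a line joining the libraries of a mouse and a black bar at the mean of 3 libraries. *Jun* rose in all 3 mice, from 92.4 to 127 CPM at day 5 to 409 to 697 at day 7, while *Fos* and *Fosb* stayed high at day 7 in mouse 1 alone.

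FOS, the founding member of the family, is the classical immediate early factor. *Fos* (ENSMUSG00000021250, GRCm39, chr12:85520658-85524047, plus strand, 4 exons) stood at 118, 43.7 and 49.7 CPM in mice 1, 2 and 3 at day 5, and at 78.6, 14.6 and 12.2 CPM at day 7. Each mouse was lower at day 7, by log2 differences of -0.58, -1.53 and -1.95, but mouse 1 at day 7 lay above mice 2 and 3 at day 5, so the days overlapped. The means of 70.3 ± 41.0 at day 5 and 35.1 ± 37.7 CPM at day 7 (SD, n = 3) correspond to a fitted log2 fold change of -0.99 (SE 0.50, 95% interval -2.03 to 0.05), which did not pass the edgeR test (adjusted p = 0.218). With the mouse as a block, which compares the days within each mouse, the log2 fold change was -1.30 and passed (edgeR, adjusted p = 1.29e-05). In that fit edgeR took the spread of each gene wholly from the trend over all genes, so the large spread of *Fos* itself carried no weight. A blocked fit by limma voom, chosen after the data were seen, gave -1.23 (adjusted p = 0.00172), but the gene's own spread had a weight of only 5.96% there, with 2 residual against 31.6 prior degrees of freedom.

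FOSB, a close relative of FOS, has a full-length form and a truncated form, ΔFOSB, which a count of 3′ ends does not separate. *Fosb* (ENSMUSG00000003545, chr7:19036621-19043976, minus strand, 4 exons) stood at 103, 52.2 and 73.5 CPM at day 5 and at 107, 6.94 and 2.94 CPM at day 7. In mouse 1 the level hardly moved (log2 difference 0.05), while mice 2 and 3 were lower by log2 differences of -2.77 and -4.31, down to 20 and 6 reads. The means were 76.3 ± 25.6 and 38.8 ± 58.7 CPM, and the log2 fold change of -0.96 (SE 0.67, 95% interval -2.36 to 0.44) did not pass (edgeR, adjusted p = 0.375). It passed with the mouse as a block, at -1.96 in edgeR (adjusted p = 2.70e-10, with the same limit as for *Fos*) and at -1.69 in limma voom (adjusted p = 0.00596, again with little weight on its own spread).

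Leaving out a library moved both genes in either direction. Without the day 7 library of mouse 1, *Fos* was at -2.38 (edgeR, adjusted p = 9.09e-05) and *Fosb* at -3.87 (edgeR, adjusted p = 2.12e-07). *Fos* moved towards 0 without day 5 mouse 1 (-0.40) and without day 7 mouse 2 or mouse 3 (-0.61 each), as did *Fosb* without day 7 mouse 2 or mouse 3 (-0.45 each), and none of these passed. Without both libraries of mouse 1, an alternative chosen after the data were seen, *Fos* was at -1.80 (edgeR, adjusted p = 0.000365) and *Fosb* at -3.61 (edgeR, adjusted p = 9.80e-08). The day 7 library of mouse 1 also stood apart in the share of counts from mitochondrial protein genes, at 2.26% against 0.926% and 0.924% in the other day 7 libraries and 2.60% to 2.72% at day 5. The part of this difference in the levels of *Fos* and *Fosb* was not tested.

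FOSL1, also called FRA1, lacks the transactivation domain of FOS and is known from migrating and wound-edge epithelium. *Fosl1* (ENSMUSG00000024912, chr19:5497575-5505974, plus strand, 4 exons) stood at 32.6, 19.6 and 21.6 CPM at day 5 and at 14.96, 11.1 and 4.90 CPM at day 7. All 3 day 7 libraries lay below all day 5 libraries, and each mouse was lower at day 7. The mean fell from 24.6 ± 6.99 to 10.3 ± 5.08 CPM, and the fitted log2 fold change was -1.22 (SE 0.34, 95% interval -1.94 to -0.51, edgeR, adjusted p = 0.0237). It rests on 10 to 79 reads per library, and the call was lost without day 5 mouse 1 (-0.97), day 5 mouse 2 (-1.36), day 5 mouse 3 (-1.32) or day 7 mouse 2 (-1.27). The last 300 bases of *Fosl1* lie opposite *Ccdc85b*, which had 0 counts in all libraries. Whether the counting used strand is not given in the sources used here. If it did not, reads in these bases could count for neither gene, and the level of *Fosl1* would be understated. This was not tested.

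FOSL2, or FRA2, is the other FOS protein without that domain. *Fosl2* (ENSMUSG00000029135, chr5:32292707-32315186, plus strand, 4 exons) stood at 37.9, 40.2 and 43.2 CPM at day 5 and at 96.7, 149 and 61.7 CPM at day 7. The day 5 libraries were close together, and every day 7 library lay above them. The mean rose from 40.4 ± 2.65 to 102 ± 43.7 CPM, and the fitted log2 fold change was 1.34 (SE 0.26, 95% interval 0.79 to 1.90, edgeR, adjusted p = 0.00237). *Fosl2* was thus the only Fos gene that was higher at day 7 in every mouse, by log2 differences of 1.33, 1.87 and 0.50.

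The make-up of the Fos family differed between the libraries accordingly. Among reads of the 4 Fos genes, *Fosl2* made up 13.0% in mouse 1 at day 5 (95% exact binomial interval 10.6 to 15.7), 25.8% in mouse 2 (21.0 to 31.1) and 23.0% in mouse 3 (19.4 to 26.8). At day 7 its share was 32.6% (29.3 to 36.0), 82.0% (78.4 to 85.2) and 75.4% (68.2 to 81.8). The share of *Fosl2* was therefore above every day 5 library in all 3 mice, with mouse 1 much nearer to day 5 than the others. *Fosb* held 33.5% to 39.1% of the family at day 5 and 35.9%, 3.83% and 3.59% at day 7. The 4 genes together summed to 291, 156 and 188 CPM at day 5 and 297, 181 and 81.8 CPM at day 7, so the total of the family overlapped between the days.

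JUN is the strongest activator of the Jun family and is phosphorylated by the JNK kinases. *Jun* (ENSMUSG00000052684, chr4:94937271-94940459, minus strand, 1 exon) stood at 127, 92.4 and 115 CPM at day 5 and at 606, 697 and 409 CPM at day 7. The days were far apart in every mouse. The mean rose from 111 ± 17.4 to 571 ± 147 CPM, and the fitted log2 fold change was 2.36 (SE 0.23, 95% interval 1.88 to 2.83, edgeR, adjusted p = 2.33e-06), which was the largest of the 10 in size. The within-mouse log2 differences were 2.25, 2.90 and 1.82. The antisense gene *Junos* overlaps *Jun* and had 1 to 9 reads per library, against 184 to 2008 for *Jun*.

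JUNB is a weaker activator than JUN and can oppose it at some promoters. *Junb* (ENSMUSG00000052837, chr8:85701113-85705359, minus strand, 1 exon) stood at 116, 130 and 121 CPM at day 5 and at 297, 368 and 98.4 CPM at day 7. It was higher at day 7 in mice 1 and 2, but in mouse 3 it lay below all day 5 libraries, so the days overlapped. The log2 fold change was 1.06 (SE 0.31, 95% interval 0.40 to 1.72, edgeR, adjusted p = 0.0334), from means of 122 ± 7.19 and 254 ± 140 CPM. This call was lost with robust estimation of the spread (edgeR, adjusted p = 0.208) and with the filter filterByExpr (edgeR, adjusted p = 0.0752). It was also lost without day 5 mouse 1 (1.02), day 5 mouse 2 (1.11), day 5 mouse 3 (1.05), day 7 mouse 2 (0.70) or both libraries of mouse 1 (0.89). *Prdx2*, which overlaps the locus on the opposite strand, had 351 to 543 reads and differed by 0.22 on the log2 scale (edgeR, adjusted p = 0.488).

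JUND is the Jun protein known to be present in resting cells. *Jund* (ENSMUSG00000071076, chr8:71151599-71153265, plus strand, 1 exon) stood at 75.5, 70.3 and 85.4 CPM at day 5 and at 121, 154 and 260 CPM at day 7. The days did not overlap, and mouse 3, the lowest day 7 library for the other 9 genes, was the highest for *Jund*. The mean rose from 77.1 ± 7.67 to 179 ± 72.4 CPM, and the fitted log2 fold change was 1.21 (SE 0.25, 95% interval 0.69 to 1.72, edgeR, adjusted p = 0.00308).

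Together the Jun genes summed to 318, 293 and 321 CPM at day 5 and 1024, 1219 and 768 CPM at day 7. *Jun* itself went from 39.8%, 31.6% and 35.9% of the family's reads to 59.2%, 57.2% and 53.3%. In mice 1 and 2 at day 7, *Junb* held 29.0% and 30.2% and *Jund* 11.8% and 12.7%, while in mouse 3 the order was turned, with 12.8% for *Junb* (95% exact binomial interval 11.2 to 14.6) and 33.9% for *Jund* (31.5 to 36.3). The ratio of Jun to Fos family CPM was 1.09, 1.88 and 1.71 at day 5 and 3.45, 6.73 and 9.39 at day 7, without overlap. These ratios and shares compare RNA levels, and protein was not measured.

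**Figure D2:**
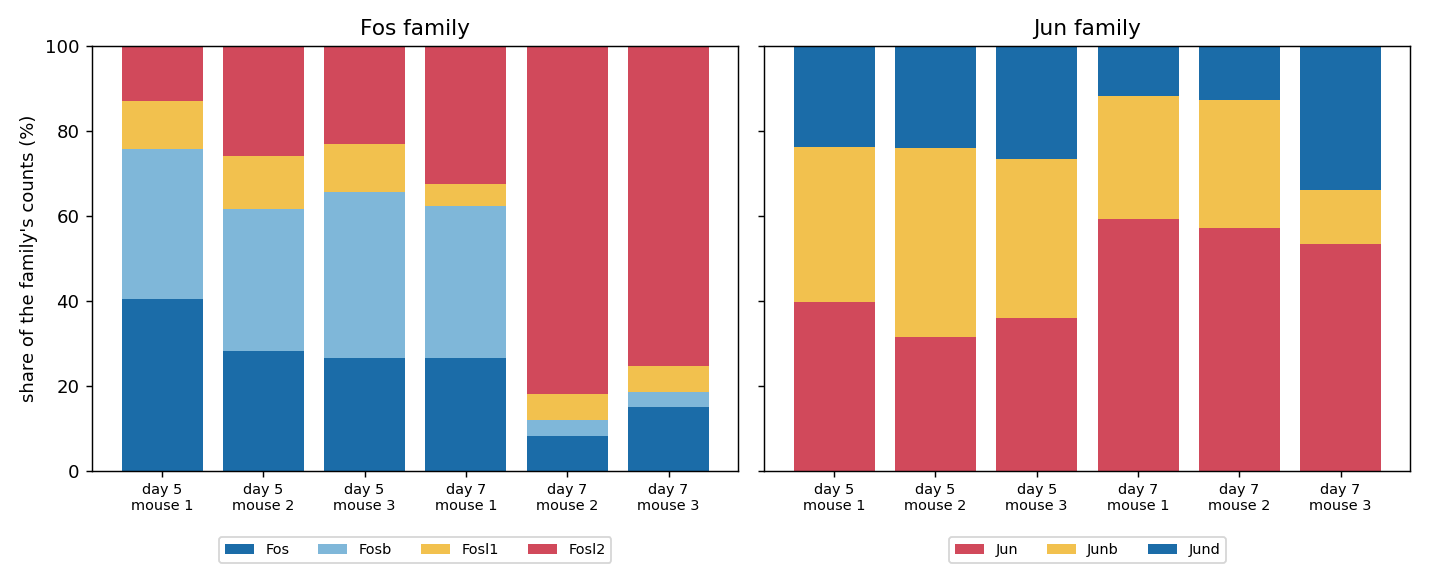
Share (%) of each gene among the reads of the Fos family (left) and the Jun family (right), with a stacked bar for each library. *Fosl2* fills 82.0% and 75.4% of the Fos family at day 7 in mice 2 and 3 but 32.6% in mouse 1, and *Jun* holds 53.3% to 59.2% of the Jun family in all day 7 libraries.

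EGR1 is a zinc finger factor induced by growth factors through the ERK kinases. *Egr1* (ENSMUSG00000038418, chr18:34992876-34998049, plus strand, 2 exons) stood at 66.4, 82.3 and 96.6 CPM at day 5 and at 167, 104 and 88.6 CPM at day 7. Mouse 1 was higher at day 7 by a log2 difference of 1.32, mouse 2 by 0.34, and mouse 3 differed by -0.12. The means were 81.8 ± 15.1 and 120 ± 41.4 CPM, and the log2 fold change of 0.55 (SE 0.24, 95% interval 0.06 to 1.05) did not pass (edgeR, adjusted p = 0.142). Without the day 7 library of mouse 3 it passed, at 0.72 (edgeR, adjusted p = 0.0192). Without the day 7 library of mouse 1 it was at 0.24 (edgeR, adjusted p = 0.481), and without both libraries of mouse 1 at 0.10 (edgeR, adjusted p = 0.867).

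IER2 is a small nuclear protein of the immediate early response. *Ier2* (ENSMUSG00000053560, chr8:85387960-85389483, minus strand, 1 exon) stood at 16.1, 12.6 and 15.9 CPM at day 5 and at 26.5, 35.1 and 20.1 CPM at day 7. The days did not overlap, but the lowest day 7 library was only slightly above the highest of day 5. The mean rose from 14.8 ± 1.98 to 27.2 ± 7.52 CPM, and the fitted log2 fold change was 0.88 (SE 0.28, 95% interval 0.30 to 1.46, edgeR, adjusted p = 0.0453). Of the 7 calls this was the closest to the threshold, and 10 of 19 alternatives lost it. Among these were DESeq2 (adjusted p = 0.0740), scaling by library totals (edgeR, adjusted p = 0.0763) and the blocked limma voom fit (adjusted p = 0.0551). It was lost as well without day 5 mouse 1 (0.93), day 5 mouse 2 (0.78), day 5 mouse 3 (0.93), day 7 mouse 2 (0.65) or both libraries of mouse 1 (0.95).

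IER3, also known as IEX-1, is an early response protein linked to cell survival and NF-kappaB signalling. *Ier3* (ENSMUSG00000003541, chr17:36132568-36133815, plus strand, 2 exons) stood at 100, 67.3 and 86.5 CPM at day 5 and at 160, 187 and 135 CPM at day 7. Every day 7 library lay above every day 5 library. The mean rose from 84.7 ± 16.5 to 161 ± 26.0 CPM, and the fitted log2 fold change was 0.92 (SE 0.21, 95% interval 0.49 to 1.36, edgeR, adjusted p = 0.00638). The call was lost without day 5 mouse 2 (0.79) or day 5 mouse 3 (0.94).

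**Figure D3:**
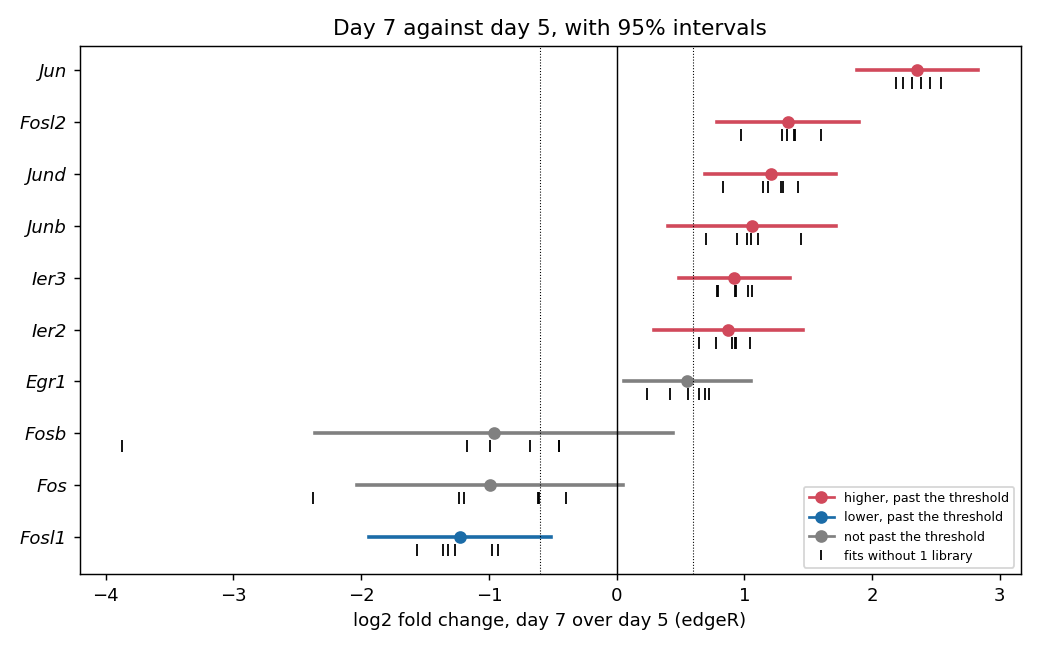
log2 fold change of day 7 over day 5 from edgeR for each gene, with 95% intervals (bars); small ticks are fits that leave out 1 library and dotted lines mark 0.6 on either side of 0. *Jun* at 2.36 lies highest, and the fit of *Fosb* without day 7 mouse 1 moves farthest, from -0.96 to -3.87.

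Within mice, 7 of the 10 genes moved the same way in all 3, with 5 higher at day 7 (*Fosl2*, *Jun*, *Jund*, *Ier2*, *Ier3*) and 2 lower (*Fos*, *Fosl1*). The share of all genes that did so was not counted, so these 7 have no background beside them. The remaining genes, *Fosb*, *Junb* and *Egr1*, had 1 mouse each that moved the other way, which was mouse 1 for *Fosb* and mouse 3 for *Junb* and *Egr1*. Mouse 3 was the lowest day 7 library for 9 of the 10 genes, where it was the lowest for 39.1% of 8172 genes that averaged at least 10 CPM. At day 5 it was the lowest for 0 of the 10 (28.2% of the 8172 genes), and mouse 2 for 7 (35.5%). Mouse 1 was the highest library for *Fos*, *Fosb* and *Fosl1* on both days.

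By level, *Junb* and *Jun* led at day 5, with means of 122 and 111 CPM, and *Fosl2*, *Fosl1* and *Ier2* stood last in that order, with means of 40.4, 24.6 and 14.8 CPM. From *Junb* down to *Fos* each gene's range over the mice overlapped that of its neighbour, so neighbours in this order did not differ beyond their spread, though *Junb* lay wholly above *Ier3*, *Egr1*, *Jund* and *Fosb*, and *Jun* above *Jund*. The ranges of *Fos*, *Fosl2*, *Fosl1* and *Ier2* were each separate from the next. At day 7 *Jun* stood alone above the rest, and the neighbours from *Junb* down to *Ier2* all overlapped. *Fosl1*, with the lowest mean, lay wholly below its neighbour *Ier2* but overlapped *Fos* and *Fosb*, and *Fosb* lay below *Fosl1* in mice 2 and 3.

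The spread between mice set *Fos* and *Fosb* apart from the other genes. The SD of log2 CPM over the 3 mice was 0.77 at day 5 and 1.44 at day 7 for *Fos*, higher than in 99.6% of the 8172 genes on each day. For *Fosb* it was 0.49 and 2.55, and no gene among the 8172 had a larger day 7 value. *Junb* went from one of the steadier genes at day 5, with an SD of 0.08 (percentile 20.2), to an SD of 1.02 at day 7 (percentile 97.6). *Ier3* was the only one of the 10 with a smaller SD at day 7 (0.23) than at day 5 (0.29). The median over the 8172 genes was 0.16 at day 5 and 0.33 at day 7, so a wider spread at day 7 was general. Among the day 7 libraries, mouse 3 was the highest for 42.6% of these genes and the lowest for 39.1%.

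**Figure D4:**
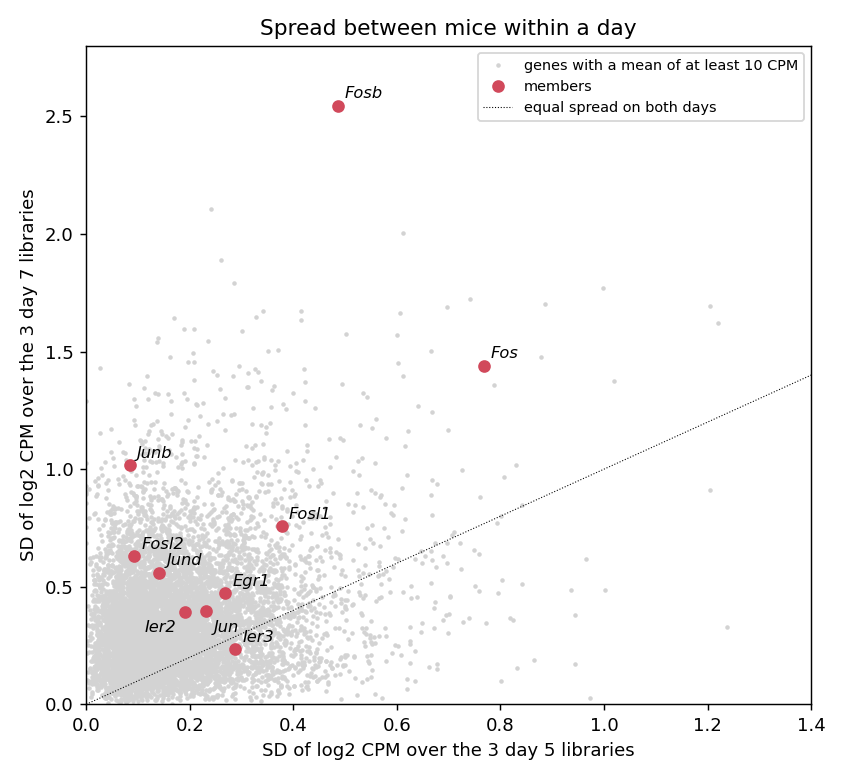
SD of log2 CPM between the 3 mice at day 5 (x axis) and at day 7 (y axis) for genes that averaged at least 10 CPM (grey) and the 10 genes (red); the dotted line marks equal spread. *Fosb* is the highest point of all at 2.55, and *Ier3* alone of the 10 lies below the line.

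Across the 6 libraries the genes fell into groups with like patterns, given here as descriptions, since the points are 3 mice on 2 days and share the day. *Fos* and *Fosb* had a Pearson r of 0.96 and *Fosb* and *Fosl1* of 0.88. *Jun* and *Ier3* had 0.97, *Fosl2* and *Ier2* 0.97, and *Ier2* and *Ier3* 0.97. *Fosl1* and *Jund* ran opposite at -0.95, and *Fos* and *Junb* had -0.11. The mean pattern of the 10 genes, in log2 CPM centred per gene, was highest in day 7 mouse 1 (0.72) and lowest in day 7 mouse 3 (-0.50). It averages genes that ran opposite and does not stand for each of them. In day 7 mouse 3, *Jun*, *Jund*, *Fosl2*, *Ier2* and *Ier3* lay above every day 5 library. Of 6064 other genes, those closest to it were *Sox9* (r = 0.998), *Enc1* (0.995), *Rictor* (0.986), *Chmp5* (0.985), *Snx13* (0.980) and *Dram1* (0.980). As the highest of 6064 values over 6 libraries, these r do not show that a gene follows the AP-1 genes. *Sox9*, a transcription factor of duct progenitors, stood at 351, 273 and 307 CPM at day 5 and 492, 383 and 251 CPM at day 7, and none of these 6 passed the test between the days.

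The lists of related genes below were written from general knowledge, but with earlier results of these data known. Their medians are therefore descriptions and not independent of the data. Each list is given by its counts and its median log2 fold change, beside -0.01 for all genes tested. Of 12 other AP-1 and bZIP partners, such as ATF, BATF and MAF proteins, 11 were tested, 4 were higher at day 7 and 0 lower, with a median of 0.13. *Maff*, a small MAF protein without a transactivation domain, rose from 5.50 ± 2.17 to 24.8 ± 8.76 CPM, a log2 difference of 2.14 (edgeR, adjusted p = 0.000579). *Jdp2*, a repressor that pairs with JUN proteins, rose by 1.11 (edgeR, adjusted p = 0.0239).

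Of 30 other immediate early genes, 27 were tested, 8 were higher, 1 was lower and 18 did not pass, with a median of 0.49. *Arc*, best known from neurons, rose from 3.71, 2.51 and 4.32 CPM to 56.0, 60.8 and 12.2 CPM, a log2 difference of 3.58 (edgeR, adjusted p = 8.79e-05), with mouse 3 the lowest at day 7. *Btg2*, an antiproliferative early gene, rose by 1.70 (edgeR, adjusted p = 0.000264), and *Hbegf*, an EGF receptor ligand, by 1.45 (edgeR, adjusted p = 0.000562). The gene that fell was *Ptgs2*, which encodes the prostaglandin synthase COX-2, at 112, 43.7 and 54.8 CPM at day 5 and 44.1, 15.3 and 8.32 CPM at day 7 (log2 fold change -1.62, edgeR, adjusted p = 0.0169). Mouse 1 was the highest for *Ptgs2* on both days, and the days overlapped, as for *Fos*.

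Of 18 kinases and factors upstream, including MAP kinases, serum response factor and its partners, 0 were higher and 1 was lower by the edgeR test, with a median of -0.01. The one that fell was *Elk4*, a ternary complex factor that binds with serum response factor, from 48.8 ± 10.6 to 24.5 ± 12.1 CPM, a log2 difference of -0.98 (edgeR, adjusted p = 0.0396). These factors are known to be governed mostly by phosphorylation, which RNA counts do not show.

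Genes listed as AP-1 targets from general knowledge were held in 2 lists, and their regulation by AP-1 was not tested. Of 20 proteases, growth factors and matrix genes, 19 were tested, 3 were higher and 1 lower, with a median of -0.07. *Hmox1*, a heme-degrading stress enzyme, rose by 1.87 (edgeR, adjusted p = 0.000236) and *Vegfa*, the angiogenic factor, by 1.33 (edgeR, adjusted p = 0.00467). *Spp1*, which encodes osteopontin, fell by 1.31 (edgeR, adjusted p = 0.00556). The other list held 8 genes under the cornified envelope, the protein shell of squamous cells, with *Krt6a* and *Tgm1* among them. Of these 8, 6 were higher and 0 lower, with a median of 2.59. *Sprr1a*, an envelope precursor, rose from 63.6 ± 16.3 to 735 ± 206 CPM, a log2 difference of 3.53 (edgeR, adjusted p = 8.10e-08). *Cnfn* had 1, 1 and 2 reads at day 5 and 174, 479 and 68 at day 7, and *Loricrin* 3, 1 and 3 reads at day 5 and 18, 41 and 19 at day 7.

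Heat shock genes and glucocorticoid-induced genes were listed because handling and dexamethasone are known to act on them. Of 11 heat shock genes, 1 was higher and 2 were lower, with a median of -0.31. The higher one was *Hspb1*, a small chaperone (log2 fold change 1.52, edgeR, adjusted p = 0.000213). The lower ones were the chaperones *Hspd1* (-0.89, edgeR, adjusted p = 0.00341) and *Dnaja1* (-0.62, edgeR, adjusted p = 0.0443). Of 10 glucocorticoid-induced genes, 4 were higher and 0 lower, with a median of 1.08, and *Sgk1*, *Dusp1* and *Cebpd* stand in the list of immediate early genes too. *Errfi1*, a feedback inhibitor of the EGF receptor, rose by 2.28 (edgeR, adjusted p = 0.000271), *Cebpd* by 1.79 (edgeR, adjusted p = 0.00242) and *Tsc22d3*, which encodes GILZ, by 1.17 (edgeR, adjusted p = 0.00305). The part of either list in the levels of the AP-1 genes was not tested.

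**Figure D5:**
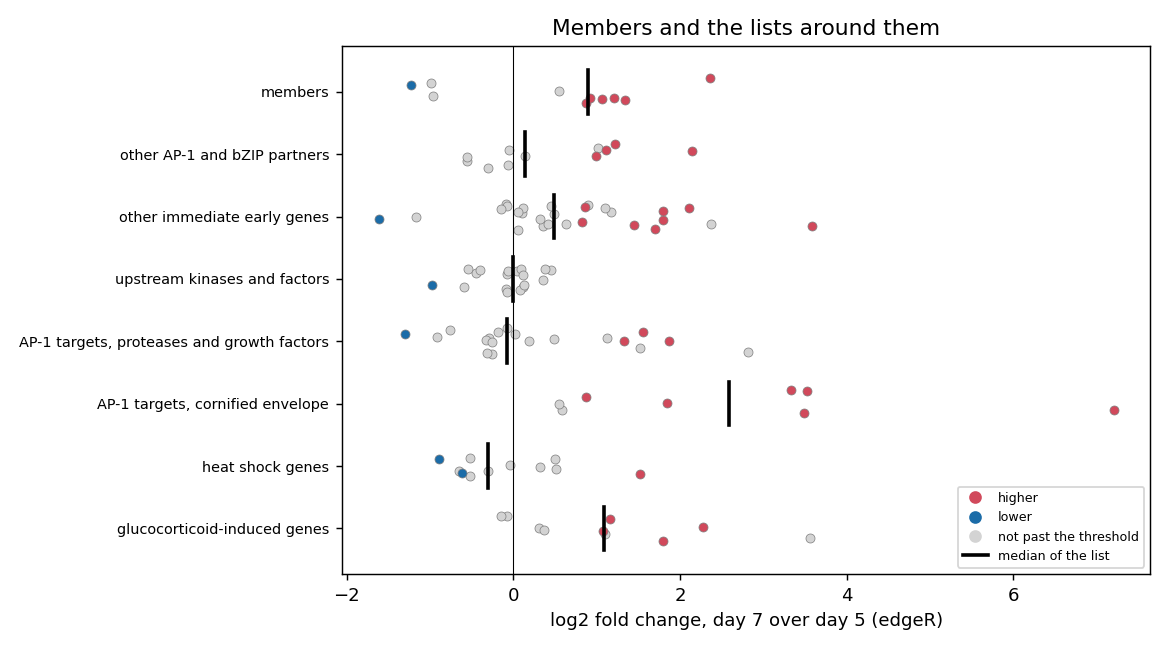
log2 fold change of day 7 over day 5 (x axis) for each tested gene of the lists, with a point for each gene, coloured where it passed the threshold, and a black bar at the median of the list. The 10 genes have a median of 0.90, the upstream kinases and factors -0.01 and the cornified envelope list 2.59.

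The libraries held 1918198 to 2837397 counts in genes, and reads assigned to no single gene were 13.7% to 14.4% of a library at day 5 and 9.12% to 9.74% at day 7. All 8 duct epithelium markers were tested, and they summed to 14395 to 18173 CPM at day 5 and 11812 to 16026 CPM at day 7. Among them *Cldn4*, a tight junction claudin, was higher at day 7 (1.89 on the log2 scale, edgeR, adjusted p = 0.000149), the luminal keratin *Krt8* was lower (-0.65, edgeR, adjusted p = 0.0374), and 6 did not pass. Of 10 macrophage markers, 7 were at 0 in all libraries, the defining *Csf1r* and *Adgre1* among them. The 2 that were tested, *Cd14* and *Cd68*, summed to 8.03 to 10.7 CPM at day 5 and 9.30 to 13.9 at day 7. *Cd68*, a lysosomal protein, was higher (2.36 on the log2 scale, edgeR, adjusted p = 0.0151), from 4, 2 and 1 reads to 8, 17 and 14. Of 8 endothelial markers, the 5 tested summed to 11.9 to 14.1 and 13.9 to 27.4 CPM, with *Cdh5* and *Tek* at 0. Most of this was *Egfl7*, at 9.73 to 12.0 CPM at day 5 and 12.3 to 25.9 at day 7. It did not pass (edgeR, adjusted p = 0.246). Of 8 fibroblast markers, the 4 tested summed to 0.360 to 0.502 and 1.74 to 2.94 CPM, with *Col1a2*, *Col3a1* and *Lum* at 0.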

How the data were processed

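Per the labels, polyadenylated RNA of organoids from 3 mice on 2 days was made into QuantSeq 3′ libraries. The deposited values are whole-number counts per Ensembl gene ID and library, made by the authors with reads aligned to GRCm39 and not normalised. The aligner, annotation release and strand setting are not given in the sources used here. Entries that name no gene entered neither library sizes nor tests. Names and places came from GENCODE vM39 by ID (43465 of 47643 IDs, 91.2%).

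Genes counted in 2 or more libraries (minimum 1 count) were tested in R 4.3.3 with edgeR 4.0.16 (glmQLFit and glmQLFTest, robust = FALSE, TMM, day as the only term), with Benjamini-Hochberg adjustment over all genes tested. In this fit edgeR drew each gene's spread towards the trend over all genes, with 14.3 prior degrees of freedom. A gene's own spread therefore counted only in part. The edgeR step was tested on simulated data. Within-mouse differences, SDs and correlations used log2 CPM with a prior count of 2. At these depths 3 counts, the limit that a count of 0 allows, are 1.04 to 1.51 CPM. This limit and the binomial intervals do not cover more than counting error, as no molecular identifiers were used. Same-numbered libraries were taken to come from the same mouse, as the labels number the mice alike on both days. Over 8172 genes their deviations from the day means correlated at 0.14, -0.10 and 0.16 for mice 1, 2 and 3.

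The 10 genes, the lists and the tests were chosen with earlier results of these data known. Named beside the 10 were, per list, up to 3 genes past the threshold with the smallest p in each direction, and the 6 genes with the highest r to the mean pattern (mean count of at least 50, no predicted loci). Some genes that this rule names are not reported here. Alternatives were DESeq2 size factors, library totals, no filter, filterByExpr, the mouse as a block, robust estimation, DESeq2 1.42.0, limma 3.58.1 voom with sample weights, glmTreat, no minimum fold change and leaving out each library. The fits without mouse 1 and the blocked limma voom fit were added after seeing the data.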

Additional observations from a re-analysis of the deposited data

How the results depend on the processing

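Under 19 alternatives, *Jun* (2.19 to 2.54) and *Fosl2* (0.97 to 1.60) passed the threshold in every fit, and none of the 190 values of the 10 genes changed sign. Of these, 147 kept their side of the threshold, 28 lost a call and 15 gained one. All genes past the threshold numbered 1901 in the fit as reported, 3121 by limma voom with sample weights, 622 by glmTreat against a minimum log2 fold change of 0.6, and 797 to 2576 when a library or mouse 1 was left out. Of the 10 genes, 2 passed by glmTreat (*Jun* and *Fosl2*) and 3 to 9 when a library was left out: 4, 3 and 3 without day 5 mouse 1, 2 or 3, and 9, 4 and 8 without day 7 mouse 1, 2 or 3. In fits with the replicate block (the mouse number), 9 of the 10 genes (2340 of all genes) passed in edgeR and 8 in limma voom (2215 of all), and the block changed the calls of *Fos* and *Fosb* in both and of *Ier2* in limma voom, and no other call of the 10. Scaling by library totals turned 1140 higher and 761 lower genes into 950 and 1008, with the median of all genes at -0.10 in place of -0.01. *Jund* lost its call by glmTreat alone (adjusted p = 0.0607). Without a filter, as with the block, edgeR gave a gene's own spread no weight, and *Fos* (-0.99, adjusted p = 0.000641) and *Fosb* (-0.96, adjusted p = 0.000801) passed. Limma voom with sample weights passed both too, at -1.46 (adjusted p = 0.0255) and -2.51 (adjusted p = 0.00369). With 3 libraries a day, genes near 10 reads, such as *Fosl1* and *Fosb* in day 7 mouse 3, are limited by counting.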
